A study of Mus musculus with 2 samples.

Results

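The SLC22 genes encode membrane carriers of organic anions, organic cations, carnitine and urate, and most of those studied in the kidney sit in the proximal tubule. Levels are given here for 9 of them, Slc22a2, Slc22a5, Slc22a6, Slc22a7, Slc22a8, Slc22a12, Slc22a13, Slc22a18 and Slc22a19, found by symbol among the 32285 genes listed for both kidney sections. The files list 25 SLC22 genes in all. Each of the 9 had UMIs (counts of distinct captured RNA molecules) in both sections.

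Of the 2 sections, 1 came from a mouse given SH045, a blocker of the cation channel TRPC6, and 1 from a mouse given Vehicle. Both are labelled as kidneys of C57BL/6 mice with unilateral ureteral obstruction (UUO), a model made by tying off a single ureter, taken at day 7 after surgery. No other allele or agent is named, and neither age nor sex is given. With 1 section from 1 mouse per group there is no replicate and no test, and treatment, mouse, slide area and library cannot be told apart. Intervals below are 95% and cover counting error only. CPM means UMIs per 1000000 UMIs of all genes in the section or set of spots named.

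The sections differed in many ways beside the treatment. Spots numbered 790 for SH045 (22388623 UMIs, median 27733 per spot) and 676 for Vehicle (4327613 UMIs, median 4932.5 per spot). Mitochondrially encoded genes took 4.24% of UMIs in SH045 kidney and 10.4% in Vehicle kidney. The labels call both kidneys obstructed, but the 10 injured tubule markers summed to 27687 CPM in SH045 kidney and 1656 CPM in Vehicle kidney, and Havcr1, which damaged proximal tubule switches on, stood at 992 CPM in SH045 kidney and 1.62 CPM in Vehicle kidney. Fibroblast markers summed to 2832 CPM in SH045 kidney and 102 CPM in Vehicle kidney, and macrophage markers to 1879 CPM in SH045 kidney and 223 CPM in Vehicle kidney. Distal convoluted and connecting tubule markers summed to 620 CPM in SH045 kidney and 23033 CPM in Vehicle kidney. Y-linked transcripts were present in both sections. Together with Xist they summed to 94.5 CPM in SH045 kidney and 52.0 CPM in Vehicle kidney over 5 genes. Xist had 1 UMI in SH045 kidney and 0 in Vehicle kidney. The sections share 335 spot barcodes, which on these slides name grid positions and not molecules.

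A proximal tubule cell takes organic anions from the blood through carriers in its basolateral membrane and passes them to the urine through others in its brush border. OAT1 (Slc22a6) and OAT3 (Slc22a8) do the uptake by exchange against dicarboxylates, and OCT2 (Slc22a2) takes up organic cations. The brush border carriers include URAT1 (Slc22a12), which recovers urate, and OCTN2 (Slc22a5), which recovers carnitine. Several of these genes are known to differ along the tubule, from the convoluted segments S1 and S2 in the cortex to the straight segment S3 in the outer medulla, and between male and female mice.

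All 9 genes differed by at least 1.5-fold between the sections. In the SH045 section 6 were lower (Slc22a2, Slc22a5, Slc22a6, Slc22a8, Slc22a12 and Slc22a18) and 3 were higher (Slc22a7, Slc22a13 and Slc22a19), with a median log2 ratio of -1.17 (SH045 over Vehicle, on log2 of CPM plus 1). Among the 10463 genes that reached 10 CPM in either section, 12.0% were lower in SH045 kidney by that fold and 53.2% were higher. Their median log2 ratio was 0.63. With TMM scaling 26.6% of the genes at 10 CPM were lower by that fold and 26.5% higher, and with median-of-ratios scaling 28.2% were lower and 25.1% higher, while the members stood at 6 lower and 3 higher under both. All 9 passed that level filter, Slc22a7, Slc22a13 and Slc22a19 through the SH045 section alone. The 6 lower genes summed to 418 CPM in SH045 kidney and 2310 CPM in Vehicle kidney. The 3 higher genes summed to 63.3 CPM in SH045 kidney and 17.3 CPM in Vehicle kidney. In a whole section, fewer cells of a type and less RNA per cell cannot be told apart.

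**Figure D1:**
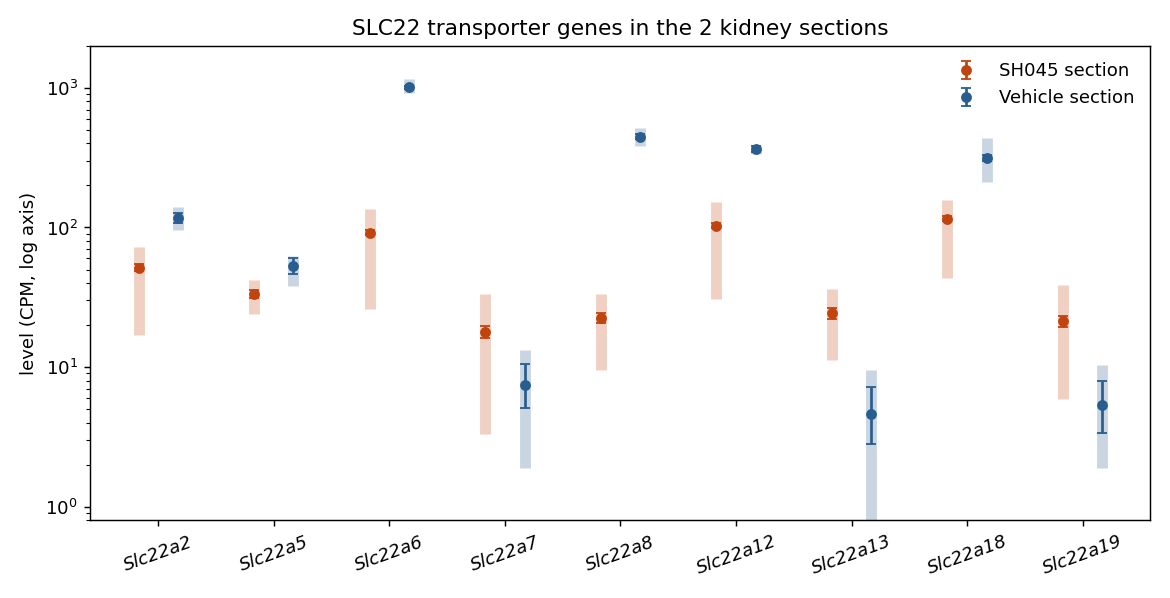
Level of each gene (CPM, log axis) in SH045 kidney (left point of each pair) and the Vehicle section (right point). Whiskers are exact Poisson 95% intervals and pale bars the range over 4 position blocks of a section, the bar of Slc22a13 in Vehicle running to 0. Slc22a6 and Slc22a8 lie farthest below Vehicle, and Slc22a7, Slc22a13 and Slc22a19 lie above it.

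The organic anion uptake carriers Slc22a6 and Slc22a8 had the lowest ratios of the 9. Slc22a6 (ENSMUSG00000024650) stood at 91.9 CPM (2057 UMIs, interval 87.9 to 95.9) in SH045 kidney and 1008 CPM (4361 UMIs, interval 978 to 1038) in Vehicle kidney. That is 10.97-fold lower in SH045 kidney (interval 10.4 to 11.6), a log2 ratio of -3.44. Its 4 position blocks ran between 26.1 and 137 CPM in SH045 kidney and between 914 and 1167 CPM in Vehicle kidney, without overlap. Blocks are parts of 1 section and not replicates, and the share of all genes whose blocks did not overlap was not computed. Slc22a8 (ENSMUSG00000063796) stood at 22.5 CPM (504 UMIs, interval 20.6 to 24.6) in SH045 kidney and 448 CPM (1940 UMIs, interval 429 to 469) in Vehicle kidney. It was 19.9-fold lower in SH045 kidney (interval 18.0 to 22.0), with a log2 ratio of -4.26, and its blocks at 9.49 to 33.5 CPM did not overlap those of the Vehicle section at 381 to 520 CPM. With every spot thinned to 2500 UMIs, at least 1 Slc22a8 UMI was present in 2.66% of 788 SH045 spots (interval 1.66 to 4.04) and in 66.3% of 561 Vehicle spots (interval 62.2 to 70.2).

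Slc22a6 and Slc22a8 lie close to each other on chromosome 19, at 8617996 to 8628299 and at 8591254 to 8611835 (RefSeq, GRCm38.p6). Their promoter windows are shown because they were the lowest of the 9 genes in SH045 kidney relative to Vehicle kidney and are neighbours. The windows are RefSeq sequences of 300 bases, running from 250 before to 50 after the start that the RefSeq promoter table gives, read 5′ to 3′ on the gene's strand. The Slc22a6 window is chr19:8617746-8618045 on the plus strand and the Slc22a8 window chr19:8592932-8593231, also on the plus strand, which lies inside the annotated span of its gene.
Slc22a6: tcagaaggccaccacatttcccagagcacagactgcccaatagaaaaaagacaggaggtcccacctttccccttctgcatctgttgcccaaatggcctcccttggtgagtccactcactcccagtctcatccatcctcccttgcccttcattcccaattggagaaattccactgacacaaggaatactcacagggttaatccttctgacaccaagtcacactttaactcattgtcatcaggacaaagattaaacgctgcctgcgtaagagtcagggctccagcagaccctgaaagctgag
Slc22a8: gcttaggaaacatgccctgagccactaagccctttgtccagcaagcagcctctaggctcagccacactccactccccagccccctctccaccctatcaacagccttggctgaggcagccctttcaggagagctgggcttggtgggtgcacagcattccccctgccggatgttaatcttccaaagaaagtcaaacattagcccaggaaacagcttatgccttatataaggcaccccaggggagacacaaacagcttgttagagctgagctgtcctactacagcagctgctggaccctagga
RefSeq windows were found for 8 of the 9 genes.

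The windows of Slc22a13 and Slc22a19, both higher in SH045 kidney, are shown for contrast. They are chr9:119209056-119209355 and chr19:7711261-7711560, both on the minus strand, again 5′ to 3′ along the gene.
Slc22a13: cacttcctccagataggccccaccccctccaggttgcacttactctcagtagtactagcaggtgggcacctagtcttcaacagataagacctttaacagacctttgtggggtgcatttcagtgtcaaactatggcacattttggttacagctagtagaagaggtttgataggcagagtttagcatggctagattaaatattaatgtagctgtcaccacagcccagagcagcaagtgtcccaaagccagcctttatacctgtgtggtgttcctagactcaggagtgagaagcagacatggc
Slc22a19: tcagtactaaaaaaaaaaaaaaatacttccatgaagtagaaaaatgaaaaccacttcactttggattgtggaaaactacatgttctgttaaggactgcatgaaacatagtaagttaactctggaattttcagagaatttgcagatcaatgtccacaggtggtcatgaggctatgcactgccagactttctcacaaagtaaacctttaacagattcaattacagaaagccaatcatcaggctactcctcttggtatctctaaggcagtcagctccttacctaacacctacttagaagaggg

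Slc22a12 (chromosome 19, 6535854 to 6543070), the urate carrier URAT1, stood at 103 CPM (2300 UMIs, interval 98.6 to 107) in SH045 kidney and 368 CPM (1593 UMIs, interval 350.2 to 387) in Vehicle kidney. It was 3.58-fold lower in SH045 kidney (interval 3.36 to 3.82), and the blocks did not overlap, at 30.9 to 152 CPM in SH045 kidney and 336 to 386 CPM in Vehicle kidney. Slc22a18 (chromosome 7, 143473726 to 143499334), an imprinted carrier gene whose substrates are not settled, stood at 116 CPM (2589 UMIs) in SH045 kidney and 315 CPM (1365 UMIs) in Vehicle kidney, 2.73-fold lower in SH045 kidney (interval 2.55 to 2.91). The lowest Vehicle block of Slc22a18 (212 CPM) was above the highest SH045 block (156 CPM).

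Slc22a2 (chromosome 17, 12584189 to 12628489), the cation carrier OCT2, stood at 51.7 CPM (1157 UMIs, blocks 17.1 to 72.5) in SH045 kidney and 117 CPM (508 UMIs, blocks 96.4 to 139) in Vehicle kidney. The difference was 2.27-fold, lower in SH045 kidney (interval 2.04 to 2.52). Slc22a5 (chromosome 11, 53864542 to 53891796), the carnitine carrier OCTN2, was nearest to the 1.5-fold limit among the lower genes, at 33.5 CPM (749 UMIs, blocks 24.0 to 42.0) in SH045 kidney and 53.1 CPM (230 UMIs, blocks 37.8 to 62.2) in Vehicle kidney. Its blocks overlapped, and its fold of 1.59, lower in SH045 kidney, had an interval of 1.36 to 1.84.

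Slc22a13 (chromosome 9, 119192966 to 119209105) encodes OAT10, a brush border carrier known in human for nicotinate and urate. It stood at 24.3 CPM (543 UMIs, interval 22.3 to 26.4) in SH045 kidney and 4.62 CPM (20 UMIs, interval 2.82 to 7.14) in Vehicle kidney, 5.25-fold higher in SH045 kidney (interval 3.36 to 8.66). The lowest SH045 block of Slc22a13 (11.2 CPM) was above the highest Vehicle block (9.45 CPM). Slc22a19 (chromosome 19, 7673075 to 7711310), the rodent anion carrier OAT5, stood at 21.2 CPM (475 UMIs) in SH045 kidney and 5.31 CPM (23 UMIs) in Vehicle kidney, 3.99-fold higher in SH045 kidney (interval 2.63 to 6.36). Slc22a7 (chromosome 17, 46432185 to 46438477), the anion carrier OAT2, stood at 17.8 CPM (399 UMIs) in SH045 kidney and 7.39 CPM (32 UMIs) in Vehicle kidney, 2.41-fold higher in SH045 kidney (interval 1.68 to 3.57). Blocks of the sections overlapped for both, at 5.93 to 38.5 CPM (SH045) and 1.89 to 10.4 CPM (Vehicle) for Slc22a19, and at 3.32 to 33.1 CPM (SH045) and 1.89 to 13.2 CPM (Vehicle) for Slc22a7. Slc22a19 has close relatives beside it on chromosome 19, Slc22a26 to Slc22a30, so UMIs could be assigned among them in error. The Vehicle values rest on 20 to 32 UMIs per gene. The liver also makes OAT2, and the hepatocyte markers Cyp2c29 and Serpina3k had 0 UMIs in both sections. Of the other hepatocyte markers listed here, Alb had 7 UMIs in SH045 kidney and 15 in Vehicle kidney, and Apoa1 had 54 in SH045 kidney and 7 in Vehicle kidney. Ttr had 441 UMIs (19.7 CPM) in SH045 kidney and 717 UMIs (166 CPM) in Vehicle kidney.

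**Figure D2:**
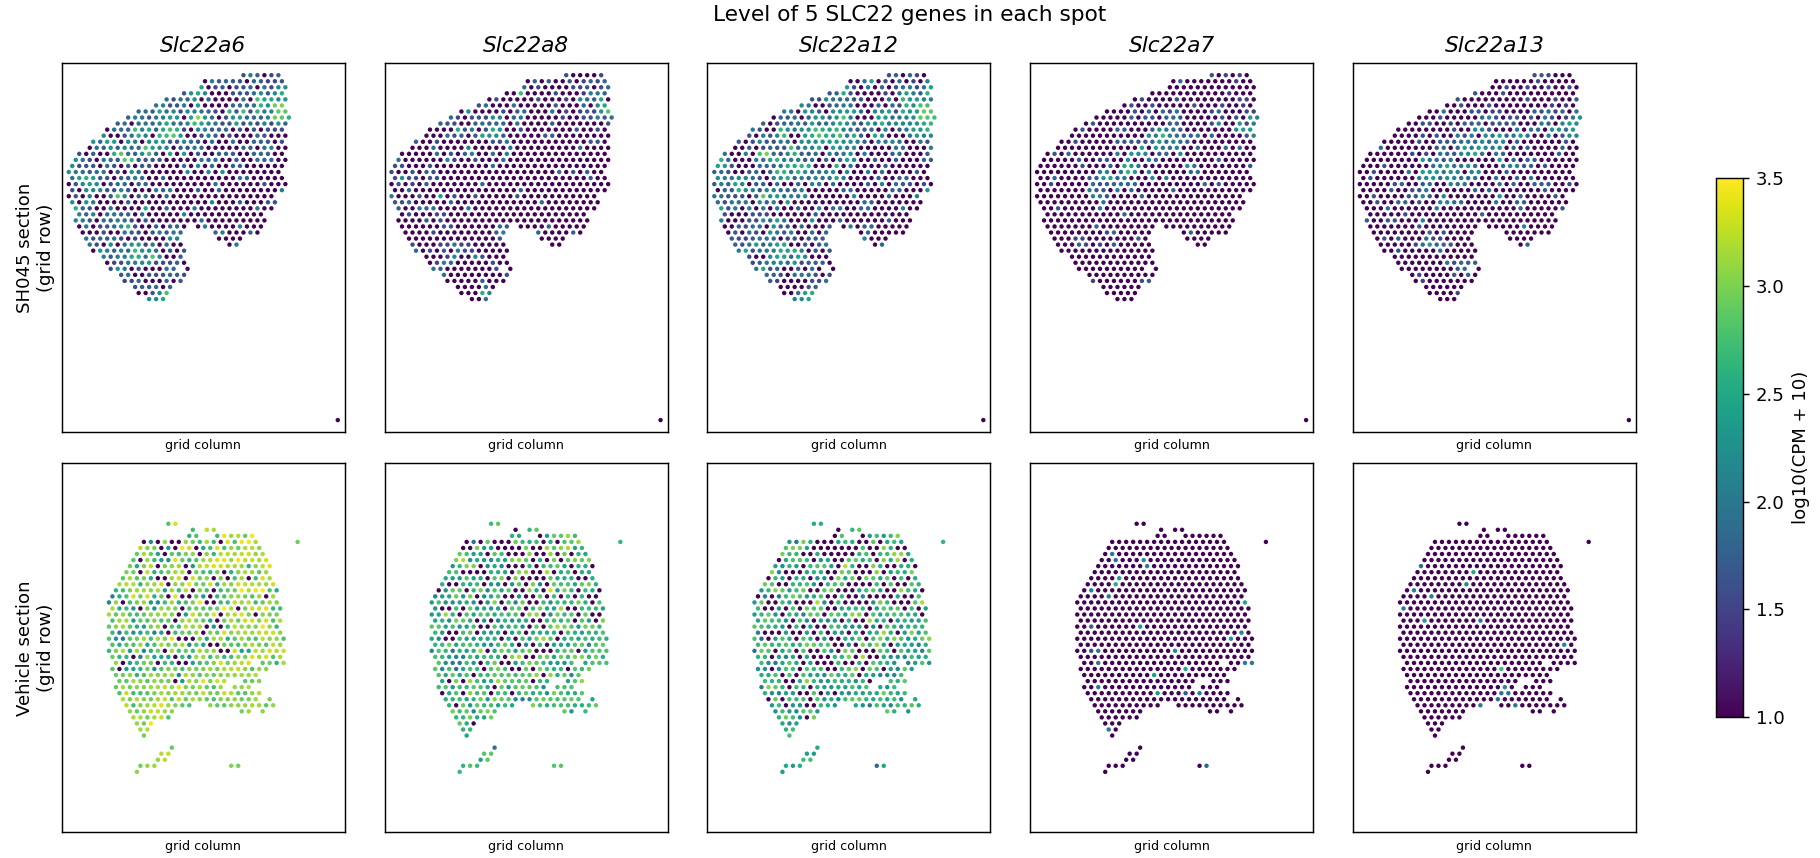
Level of 5 genes in each spot, as log10 of CPM plus 10, by grid position, with the SH045 section above and the Vehicle section below at 1 spatial scale. In the SH045 section Slc22a6, Slc22a8 and Slc22a12 are bright along the upper left rim and Slc22a7 and Slc22a13 in a band farther inside, and in Vehicle kidney Slc22a6, Slc22a8 and Slc22a12 are spread over the whole section.

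The 2 proximal marker lists, 10 genes each for the convoluted and the straight segments and none of them an SLC22 gene, were themselves lower in SH045 kidney, at 3932 CPM together, than in Vehicle kidney, at 10855 CPM. The convoluted list summed to 1093 CPM in SH045 kidney and 5986 CPM in Vehicle kidney, with 10 of 10 genes lower in SH045 kidney. The straight list summed to 2839 CPM in SH045 kidney and 4869 CPM in Vehicle kidney and was mixed, with 4 genes lower and 5 higher in SH045 kidney. Cyp7b1, Serpina1f and Bcat1, markers of the straight segment, stood at 54.2, 189 and 74.9 CPM in SH045 kidney, against 5.55, 7.63 and 0.693 CPM in Vehicle kidney. Slc7a13, a cystine carrier of the same segment, ran the other way, at 71.6 CPM in SH045 kidney and 150 CPM in Vehicle kidney. The list rested largely on different genes in the 2 sections. Cyp4b1 and Acy3 led it in Vehicle kidney, at 1988 and 1668 CPM, and stood at 218 and 377 CPM in SH045 kidney. Napsa and Atp11a led it in SH045 kidney, at 1009 and 519 CPM, and stood at 320.5 and 272 CPM in Vehicle kidney.

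Per UMI of these proximal markers, Slc22a6 and Slc22a8 were still called lower in SH045 kidney, and the other 7 were not. Slc22a6 had 23.4 UMIs per 1000 proximal marker UMIs in SH045 kidney and 92.8 in Vehicle kidney, 3.97-fold lower in SH045 kidney (interval 3.77 to 4.19). Slc22a8 had 5.72 per 1000 in SH045 kidney and 41.3 in Vehicle kidney, 7.21-fold lower in SH045 kidney (interval 6.54 to 7.97). On this measure 1.54% of all 10463 genes were lower in SH045 kidney by 1.5-fold and 91.7% were higher. Against the convoluted list alone the SH045 over Vehicle ratio was 0.499 for Slc22a6 and 0.275 for Slc22a8.

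Slc22a2, Slc22a12 and Slc22a18 were within 1.5-fold on this measure. Slc22a18 had 29.4 UMIs per 1000 proximal marker UMIs in SH045 kidney and 29.1 in Vehicle kidney, a ratio of 1.01 (interval 0.947 to 1.08). Slc22a2 had 13.1 in SH045 kidney and 10.8 in Vehicle kidney, a ratio of 1.22, and Slc22a12 had 26.1 in SH045 kidney and 33.9 in Vehicle kidney, a ratio of 0.770 (interval 0.722 to 0.822). Slc22a5 crossed to the higher side, with 8.51 per 1000 in SH045 kidney and 4.90 in Vehicle kidney, a ratio of 1.74 (interval 1.497 to 2.02). Against the convoluted markers alone the 3 genes within 1.5-fold were past 1.5-fold higher in SH045 kidney, at a ratio of 2.41 for Slc22a2, 1.53 for Slc22a12 and 2.01 for Slc22a18. That list was itself lower in SH045 kidney, at 1093 CPM against 5986 CPM in Vehicle kidney. Slc34a1 made up most of it, at 585 CPM in SH045 kidney and 4413 CPM in Vehicle kidney, so these ratios depend largely on 1 marker. The share of all genes past 1.5-fold against this list was not computed. Per UMI of both proximal lists the SH045 over Vehicle ratio was 6.65 for Slc22a7, 14.5 for Slc22a13 and 11.02 for Slc22a19. These genes and Slc22a5 were past 1.5-fold higher per UMI of both lists, as were 91.7% of all 10463 genes.

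**Figure D3:**
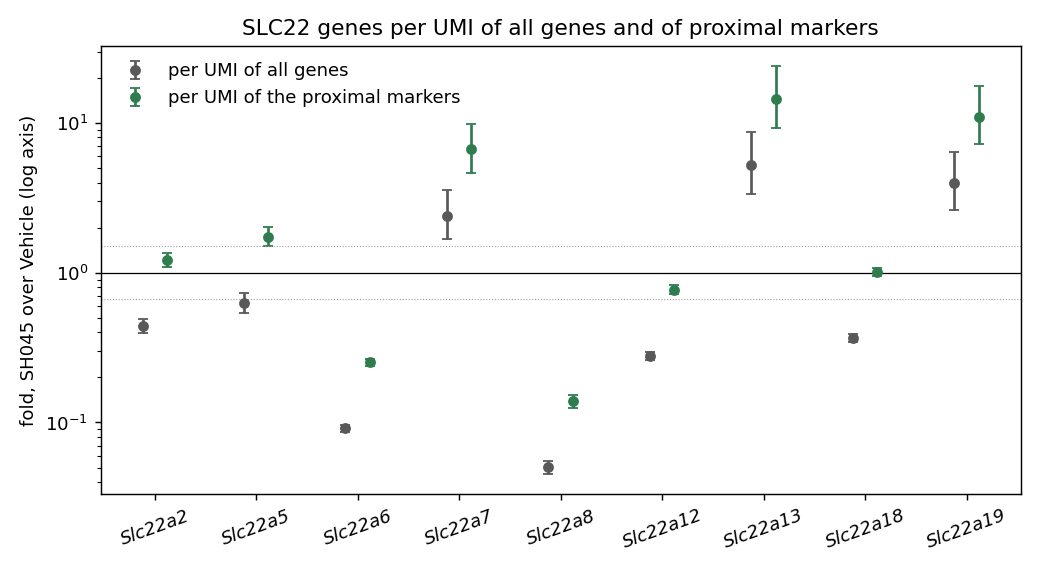
SH045 over Vehicle ratio of each gene (log axis) per UMI of all genes (grey) and per UMI of the proximal markers (green), with exact 95% counting intervals and dotted lines at 1.5-fold either way. Slc22a6 and Slc22a8 lie under the lower line on both measures, and Slc22a2, Slc22a12 and Slc22a18 only per UMI of all genes.

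Within a section, spots with at least 20 proximal marker UMIs were put into 5 equal bins by the share of those UMIs that came from the straight list. In the SH045 section the median straight share was 46.9% in bin 1 and 92.4% in bin 5, and the median distance from the tissue edge was 2 grid steps in bin 1 and 7 in bin 5. Over these ends 4 of the 9 genes were straight-rich at 1.5-fold or more, 2 were convoluted-rich and 3 were in between. Of 10203 genes with at least 10 CPM in SH045 kidney, 4.97% were straight-rich and 5.35% convoluted-rich. Markers of the thick ascending limb also moved with this order, at 1749 CPM in bin 1 and 6161 CPM in bin 5, and their part in the result was not tested.

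Slc22a8 was the most convoluted-rich of the 9 in SH045 kidney, at 48.3, 32.9, 14.1, 9.78 and 5.29 CPM from bin 1 to bin 5. Bin 1 was 9.12-fold above bin 5 (interval 5.83 to 15.0). Slc22a6 followed the same order, at 139, 129.6, 105, 57.3 and 36.0 CPM, a fold of 3.85 (interval 3.21 to 4.64). Both levels dropped at each step toward the straight-rich end.

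Slc22a7, Slc22a13 and Slc22a19 ran the opposite way in SH045 kidney. Slc22a7 stood at 3.02, 4.89, 9.88, 14.3 and 67.8 CPM from bin 1 to bin 5, a fold of 22.5 (interval 13.4 to 40.7). Slc22a13 stood at 5.84, 8.67, 15.6, 25.7 and 78.9 CPM, a fold of 13.5 (interval 9.23 to 20.5). Slc22a19 stood at 5.23, 8.23, 14.1, 15.9 and 74.4 CPM, a fold of 14.2 (interval 9.51 to 22.1). The largest single step for each was the last, into the bin richest in straight markers.

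The cation carrier Slc22a2 was straight-rich only through the last bin of the SH045 section, at 49.5, 47.4, 45.7, 40.8 and 90.2 CPM, a fold of 1.82 (interval 1.55 to 2.15). Slc22a12 and Slc22a18 were within 1.5-fold over the ends, at 1.09 (interval 0.967 to 1.23) and 1.37 (interval 1.23 to 1.53). Slc22a5 lay at the limit on the convoluted side, at 42.3 CPM in bin 1 and 28.2 CPM in bin 5, with bin 1 above bin 5 by 1.497-fold (interval 1.18 to 1.90). Without the most abundant marker of each list the SH045 order changed for some genes: Slc22a12 and Slc22a18 became straight-rich, at 2.33 and 1.86, and Slc22a6 had a fold of 0.875.

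**Figure D4:**
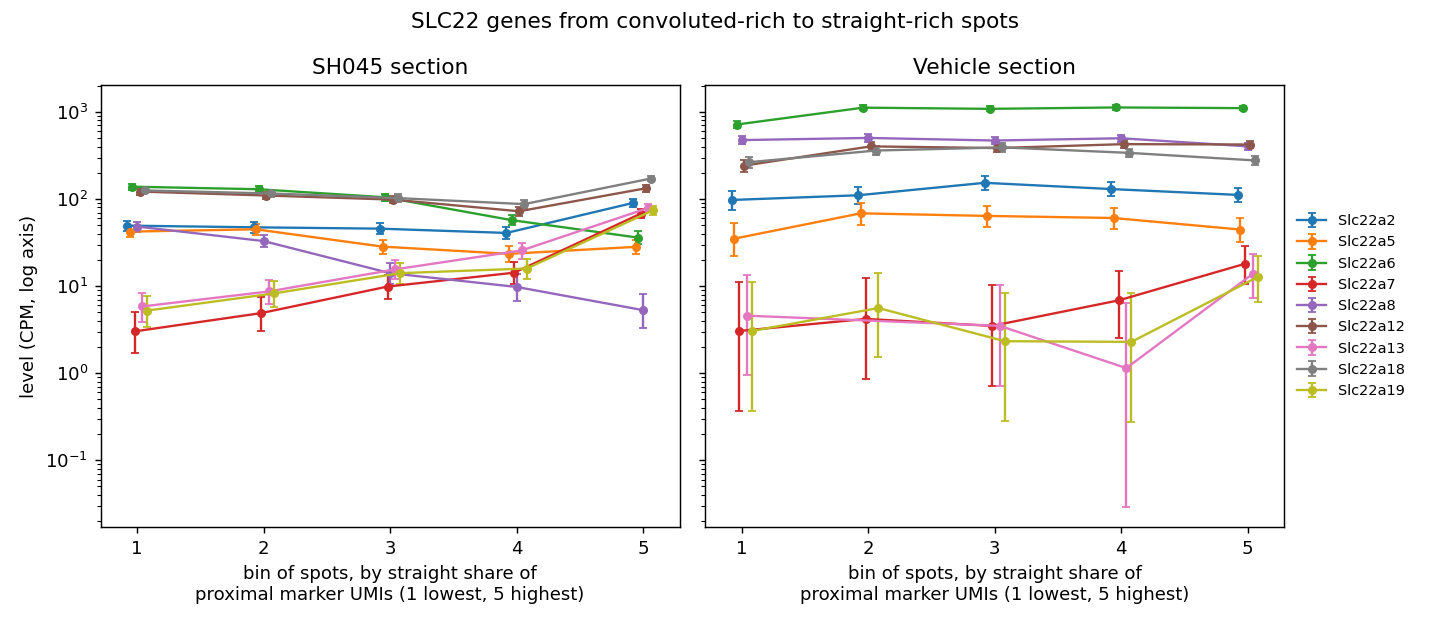
CPM (log axis) of the 9 genes in 5 equal bins of spots, ordered by the straight share of proximal marker UMIs, in SH045 kidney (left) and the Vehicle section (right), with exact Poisson 95% intervals and bins with 0 UMIs not drawn. In the SH045 section Slc22a7, Slc22a13 and Slc22a19 climb toward bin 5 while Slc22a6 and Slc22a8 drop, and in Vehicle kidney the lines of the 6 genes with at least 10 CPM there are flatter.

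In the Vehicle section the straight share spanned less, with a median of 27.1% in bin 1 and 56.7% in bin 5. Of the 6 genes with at least 10 CPM there, 2 were straight-rich and 0 convoluted-rich, against 11.3% and 15.1% of the 8209 genes measured there. Slc22a6 stood at 718, 1122, 1087, 1128 and 1108 CPM from bin 1 to bin 5, a fold of 1.54 (interval 1.38 to 1.72), and Slc22a12 had a fold of 1.75 (interval 1.45 to 2.11). In both, bin 1 stood apart from the other 4. Bin 1 was also the richest in distal convoluted and connecting tubule markers, at 40594 CPM against 13256 CPM in bin 5, and their part in the result was not tested. Neither gene was straight-rich when the straight list was reduced to Slc7a13, Cyp7b1, Serpina1f and Bcat1, at 1.12 for Slc22a6 and 1.19 for Slc22a12.

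Slc22a8, convoluted-rich in SH045 kidney, was nearly level in Vehicle kidney, at 476, 504, 470.2, 499 and 403 CPM from bin 1 to bin 5, a fold of 0.847 (interval 0.727 to 0.987). Slc22a7 had 2 UMIs in bin 1 and 17 in bin 5 of the Vehicle section, a fold of 5.93 (interval 1.41 to 52.9). Slc22a13 and Slc22a19 had folds of 3.02 (interval 0.830 to 16.5) and 4.18 (interval 0.932 to 38.5), so their direction was not detectable at this depth. The difference in gradient between the sections was not tested.

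The 10% of spots richest in a marker list, by its share of UMIs, gave a second view. In the SH045 section the convoluted-richest 10% (79 spots) held 13.8% of all UMIs, 59.9% of the Slc22a8 UMIs and 53.8% of the Slc22a6 UMIs. Slc22a8 stood at 97.7 CPM there and 10.5 CPM in the other spots, a fold of 9.33 (interval 7.78 to 11.2). Slc22a6 stood at 358 CPM there and 49.3 CPM in the other spots, a fold of 7.26 (interval 6.65 to 7.92). Slc22a7, Slc22a13 and Slc22a19 had folds of 0.638, 0.689 and 0.885 in the same spots.

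The straight-richest 10% of SH045 kidney held 12.0% of all UMIs. It held 67.2% of the Slc22a7 UMIs, 64.0% of the Slc22a19 UMIs and 56.5% of the Slc22a13 UMIs. Against the other spots the fold was 15.0 for Slc22a7, 13.02 for Slc22a19 and 9.53 for Slc22a13. Slc22a12 was high in both proximal sets, at 296 CPM in the convoluted-richest (fold 4.13) and 321 CPM in the straight-richest (fold 4.41), and so was Slc22a18, at 240.3 CPM in the convoluted-richest and 286 CPM in the straight-richest. Slc22a2 stood at 97.3 CPM in the convoluted-richest spots and 139.8 CPM in the straight-richest, and Slc22a5 at 69.2 CPM and 51.3 CPM in those sets. Slc22a6 and Slc22a8 were above the other spots in the straight-richest 10% too. Slc22a6 stood at 221 CPM there, a fold of 2.98 (interval 2.71 to 3.28), and Slc22a8 at 46.5 CPM, a fold of 2.42 (interval 1.96 to 2.96).

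All 9 genes were below the other spots in the fibroblast-richest 10% of SH045 spots, with folds between 0.177 for Slc22a8 and 0.453 for Slc22a5. The same held in the 10% richest in injured tubule markers, between 0.338 for Slc22a7 and 0.686 for Slc22a5. The share of all genes below the other spots in these sets was not computed, so neither result is read as particular to the SLC22 genes. In the 10% richest in thick ascending limb markers, Slc22a7, Slc22a13 and Slc22a19 were above the other spots, at folds of 2.07, 1.73 and 1.51, and Slc22a8 was at 0.194. A spot can hold several tubule types.

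In the Vehicle section, Slc22a8 stood at 662 CPM in the convoluted-richest 10% (67 spots) and 433 CPM in the other spots, a fold of 1.53 (interval 1.31 to 1.77). Slc22a6 had a fold of 1.09 there (interval 0.968 to 1.22). In the 10% richest in distal markers the 6 genes with at least 10 CPM there had folds between 0.1995 for Slc22a2 and 0.444 for Slc22a8. No share of all genes was computed for that set. Slc22a7 had the highest fold of the 9 in the straight-richest 10% of Vehicle spots, at 22.7 CPM on 14 UMIs and a fold of 4.67 (interval 2.15 to 9.93).

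Levels in the spots richest in proximal markers were also set side by side between the sections. In the convoluted-richest 10% Slc22a8 stood at 97.7 CPM in SH045 kidney and 662 CPM in Vehicle kidney, and Slc22a6 at 358 CPM in SH045 kidney and 1089 CPM in Vehicle kidney. In the same spots Slc22a2 stood at 97.3 CPM in SH045 kidney and 114 CPM in Vehicle kidney, and Slc22a18 at 240.3 CPM in SH045 kidney and 306 CPM in Vehicle kidney. In the straight-richest 10% Slc22a13 stood at 114 CPM in SH045 kidney and 8.09 CPM in Vehicle kidney, and Slc22a19 at 113 CPM in SH045 kidney and 12.9 CPM in Vehicle kidney. The convoluted-richest spots differed in makeup, with the convoluted list at 3714 CPM in the SH045 set and 11544 CPM in the Vehicle set. The difference in that list was about as large as the one of Slc22a6 (3.05-fold) and smaller than the one of Slc22a8 (6.78-fold). Injured tubule markers differed more, at 15711 CPM in the SH045 set and 820 CPM in the Vehicle set. The straight list stood at 3695 CPM in the SH045 set and 5353 CPM in the Vehicle set. What part the makeup has in these values was not tested.

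**Figure D5:**
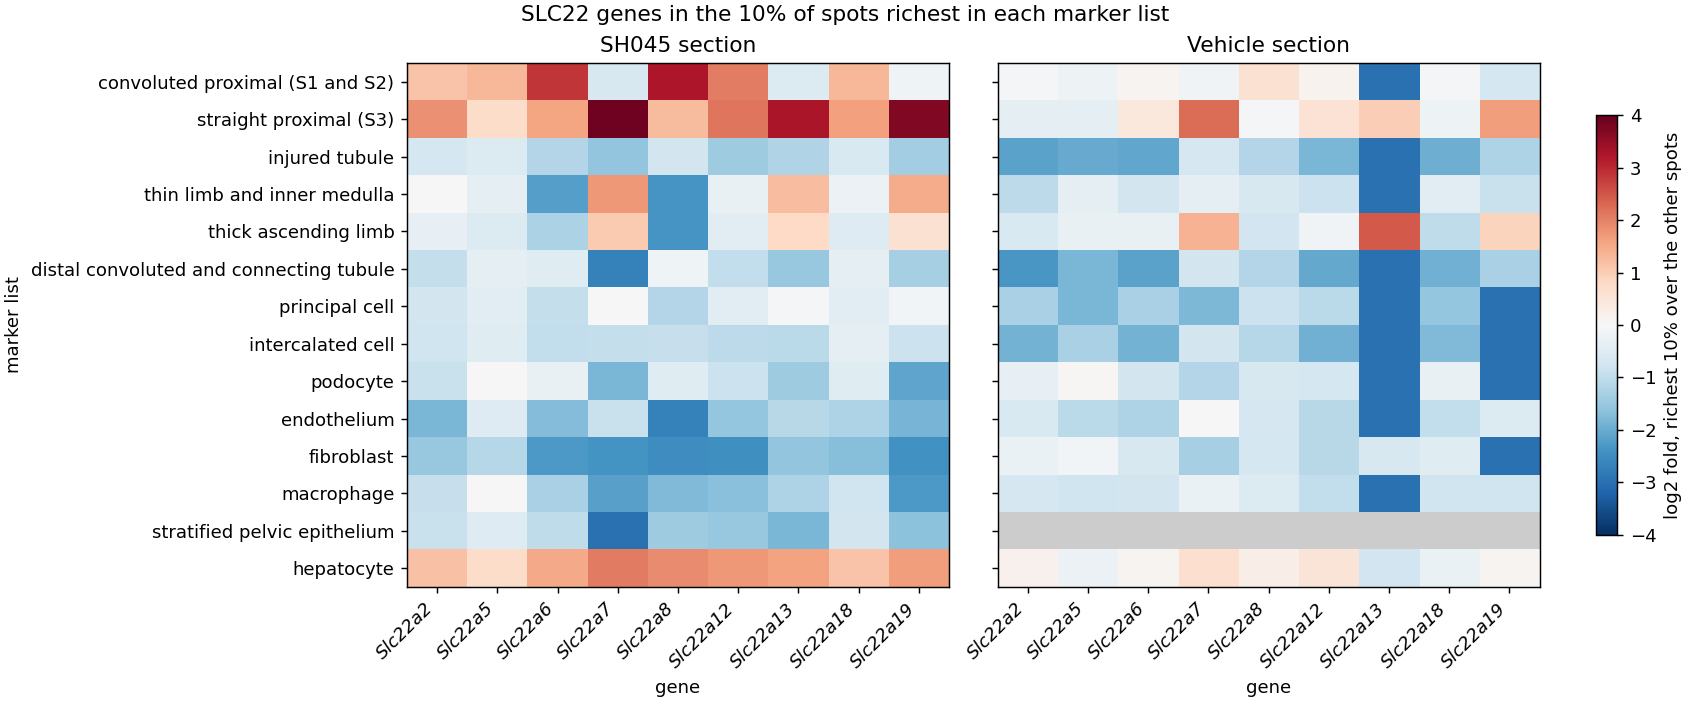
log2 fold of each gene in the 10% of spots richest in a marker list over the other spots, in SH045 kidney (left) and the Vehicle section (right), clipped at -3, where genes with 0 UMIs in those spots also stand, and with grey where the list had no UMI. In the SH045 section the darkest red cells of Slc22a6 and Slc22a8 fall on the convoluted list and those of Slc22a7, Slc22a13 and Slc22a19 on the straight list. Slc22a6 and Slc22a8 are also red, but paler, on the straight list, at folds of 2.98 and 2.42.

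Distance from the tissue edge separated some of the genes in SH045 kidney. Slc22a7 stood at 9.89 CPM at 1 to 2 grid steps from the edge, 7.38 CPM at 3 to 5 steps and 39.7 CPM at 6 or more steps. From the edge inward, Slc22a13 stood at 13.7, 12.1 and 51.2 CPM and Slc22a19 at 10.4, 10.9 and 46.0 CPM. Slc22a8 was highest at the edge, at 31.6, 23.6 and 11.4 CPM, while Slc22a6 was highest at 3 to 5 steps, at 92.4, 106.5 and 72.6 CPM. In the Vehicle section Slc22a8 stood at 479.9, 433 and 411 CPM from the edge inward, and Slc22a6 at 1069, 1019 and 895 CPM. Steps were counted from the nearest grid position without a spot in the matrix. For Vehicle 1210 positions are flagged as under tissue, and the matrix has 676 spots, 570 of them flagged. Its edge here may therefore not be the edge of the tissue.

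Mitochondrial share moved with some of these genes in Vehicle kidney. Slc22a18 stood at 453 CPM (interval 424 to 484) in the 342 Vehicle spots with 10% or more of mitochondrially encoded UMIs and 199 CPM (interval 181 to 218) in the 334 spots under 10%. Slc22a6 stood at 1201 CPM in the spots with 10% or more and 844 CPM in those under 10%, and Slc22a5 at 73.1 CPM in the spots with 10% or more and 36.3 CPM in those under 10%. Slc22a12 stood at 359 CPM in the spots with 10% or more and 376 CPM in those under 10%, and the convoluted list at 5877 CPM and 6077 CPM in those sets. Against the Vehicle spots under 10% alone, Slc22a5 was no longer called, with a log2 ratio of -0.11, and Slc22a18 had -0.78. What part the mitochondrial share has in the difference was not tested.

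Across spots, the 9 genes were at most weakly related to each other. Spearman correlations over the 36 pairs, on spots thinned to 2500 UMIs, ran between -0.03 and 0.26 in SH045 kidney (788 spots, median 0.08) and between -0.05 and 0.22 in Vehicle kidney (561 spots, median 0.04). At that depth most spots held few or no UMIs of a given gene. Unthinned, the genes whose log CPM was most like that of a member over 789 SH045 spots were largely proximal: Slc34a1, the phosphate carrier of the convoluted segments, led for Slc22a6 (0.62) and Slc22a8 (0.47). Spink1, a trypsin inhibitor gene, led for Slc22a2 (0.60), Slc22a12 (0.63) and Slc22a18 (0.64), and Napsa, an aspartic protease gene of the straight list, led for Slc22a13 (0.48). In the Vehicle section (670 spots) Kap, an androgen-regulated proximal gene, led for Slc22a6 (0.50), Slc22a12 (0.44) and Slc22a2 (0.24), and mt-Cytb for Slc22a18 (0.41). The points of each correlation share a library and vary in depth.

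Other genes of the family were lower by 1.5-fold or more in SH045 kidney as well. Slc22a28 stood at 7.91 CPM in SH045 kidney and 85.3 CPM in Vehicle kidney, Slc22a22 at 6.16 CPM (SH045) and 50.6 CPM (Vehicle), and Slc22a30 at 19.97 CPM (SH045) and 112 CPM (Vehicle). Slc22a23 stood at 33.8 CPM (SH045) and 56.8 CPM (Vehicle). Slc22a4, at 19.4 CPM (SH045) and 18.9 CPM (Vehicle), and Slc22a17, at 20.8 CPM (SH045) and 22.2 CPM (Vehicle), were within 1.5-fold.

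Genes that work with these carriers were counted by the same 1.5-fold rule, under which 12.0% of all genes were lower and 53.2% higher. Of 8 measured efflux, dicarboxylate and Slco carriers, the last being Slco1a1 and Slco1a6, 7 were lower in SH045 kidney and 1 was higher. Their median log2 ratio was -1.21. Slc13a3, which loads the cell with the dicarboxylates that OAT1 and OAT3 exchange, stood at 125 CPM in SH045 kidney and 916 CPM in Vehicle kidney. Abcg2, an apical efflux pump, stood at 194 CPM (SH045) and 398 CPM (Vehicle), and Slc47a1, the apical cation exporter MATE1, at 92.1 CPM (SH045) and 241 CPM (Vehicle). The gene that was higher, Abcc4, an anion efflux pump, stood at 46.9 CPM in SH045 kidney and 16.4 CPM in Vehicle kidney.

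Of 6 measured urate carriers and scaffold genes 4 were lower in SH045 kidney and 0 higher. Pdzk1, which anchors brush border carriers, stood at 239 CPM in SH045 kidney and 802 CPM in Vehicle kidney, Slc17a1 at 152 CPM (SH045) and 368 CPM (Vehicle), and Slc9a3r1 at 218 CPM (SH045) and 270.4 CPM (Vehicle). Of 7 measured genes of carnitine synthesis and use 4 were lower and 0 higher, among them Cpt2, of mitochondrial fatty acid import, at 80.1 CPM in SH045 kidney and 179 CPM in Vehicle kidney. Aldh9a1, of carnitine synthesis, stood at 79.95 CPM (SH045) and 239 CPM (Vehicle), and Cpt1a at 127 CPM (SH045) and 161 CPM (Vehicle).

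Hnf4a, a transcription factor gene of the proximal tubule, stood at 116 CPM in SH045 kidney and 264 CPM in Vehicle kidney. Nfe2l2, the oxidative stress factor NRF2, was higher, at 157 CPM in SH045 kidney and 60.1 CPM in Vehicle kidney. Of 6 measured imprinted neighbours of Slc22a18 on chromosome 7, 2 were lower in SH045 kidney and 0 higher, with Cd81 at 625 CPM in SH045 kidney and 542 CPM in Vehicle kidney, Nap1l4 at 109 CPM (SH045) and 83.9 CPM (Vehicle) and Kcnq1 at 37.8 CPM (SH045) and 71.4 CPM (Vehicle).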

How the data were processed

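Spatial transcriptomics was run on 10 µm fresh frozen kidney sections, 1 per group. The authors deposited raw UMI counts per gene and spot, which are not normalized, with spot positions. Space Ranger 2.0.1 made the matrices, per the file headers. The build was mm10, per the submitters' processing notes, and alignment settings are not stated there. The positions table flags 790 SH045 spots, all in the matrix, and 1210 Vehicle spots, while the Vehicle matrix has 676, 570 of them flagged. Every matrix spot was used.

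Here UMIs were summed per section or set of spots and scaled to CPM, with exact Poisson, conditional binomial and Clopper-Pearson 95% intervals. A gene was called at 1.5-fold. Spots with at least 20 proximal marker UMIs formed the bins, and spots with at least 500 UMIs the sets of 10% and the likeness measure. A count of 3 UMIs is 0.134 CPM for SH045 and 0.693 CPM for Vehicle. Correlations and shares of spots used spots thinned to 2500 UMIs, without the 2 SH045 and 115 Vehicle spots below that. Named genes were the 9 members, the family genes that reached 10 CPM in either section, the 3 members of highest level of each partner list, others whose value a sentence on a list needs, and, for members with at least 500 UMIs in a section, the 3 genes most like them, of which at most the first is printed. Member genes, marker lists and partner lists were chosen with earlier results of these data known. Alternatives covered scaling (TMM factors of edgeR 4.0.16, and median-of-ratios), totals, spots, thinning, filters, pseudocount and marker lists. Python 3.11.15, numpy 2.4.6, scipy 1.17.1, pandas 2.3.3 and R 4.3.3 were used, and the code was tested on simulated counts. Promoter windows are RefSeq sequences of GRCm38.p6. A few results of this rule are not reported here. Single-cell data of the study were not analysed here.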

Additional observations from a re-analysis of the deposited data

How the results depend on the processing

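No gene changed the direction of its difference between the sections under the 8 alternatives for its log2 ratio (SH045 over Vehicle), which ran between -5.09 and -4.04 for Slc22a8, -4.09 and -3.19 for Slc22a6, -2.48 and -1.79 for Slc22a12, -2.09 and -0.78 for Slc22a18, -1.81 and -0.81 for Slc22a2, -1.29 and -0.11 for Slc22a5, 0.56 and 1.35 for Slc22a7, 1.58 and 2.41 for Slc22a13, and 1.22 and 2.04 for Slc22a19. The median log2 ratio of all 10463 genes, 0.63 with totals, was 0.02 with TMM and -0.02 with median-of-ratios factors. The count of lower genes was 5 in place of 6 with flagged Vehicle spots alone, with Vehicle spots under 10% mitochondrial UMIs, or after thinning, Slc22a5 being the gene lost each time. The count of higher genes was 0 with a filter of 50 CPM, which none of the 3 passes. The count of straight-rich genes in Vehicle kidney, 2 in the results above and with flagged Vehicle spots, was 3 with 10% end groups in place of the bins and with Vehicle spots under 10% mitochondrial UMIs, 0 without the most abundant marker of each list, 1 after thinning, and 0 with the straight list reduced to Slc7a13, Cyp7b1, Serpina1f and Bcat1, an alternative chosen after seeing the data. The other 28 alternative counts differed by at most 1.5 times. At that limit was the SH045 straight-rich count, 6 in place of 4 without the most abundant marker of each list. The SH045 convoluted-rich count, 2 in the results above, was not among these counts. It was 1 in that same setting, 3 with 10% end groups or the reduced straight list, and 4 after thinning. Thinning left 75 SH045 spots for the bins. Slc22a7, Slc22a13 and Slc22a19 had 20 to 32 UMIs in Vehicle kidney, which limits the precision of their folds. No paired analysis was possible because there is 1 section per group.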
